A study of Mus musculus with 8 samples.

Results

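The proteasome is the protease complex that degrades ubiquitin-tagged proteins, and its genes were followed in aged mouse muscle stem cells (MuSCs) treated with nicotinamide and pyridoxine (NAM/PN). Protein-coding genes with a symbol made of Psm, a letter from a to g and a number were taken, which gave 50 of the 55487 genes in the count table. Of these, 49 are subunits, activators, inhibitors or assembly factors of the proteasome, and the remaining one, Psmc3ip, is a cofactor of meiotic recombination matched by its name alone. All 50 genes are accounted for, and 47 of them had enough reads to be tested.

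MuSCs, the resident stem cells of skeletal muscle, were isolated by FACS from old mice and grown in culture for 3 days (72 hours). The control cells received 1% DMSO as vehicle, and the treated cells received NAM, a form of vitamin B3, together with PN, a form of vitamin B6. The labels give 1 mM for the combination, without a value for each compound and without the DMSO content of the NAM/PN wells. There were 4 pools of 2 mice, each pool was split between control and NAM/PN, and this gave 4 libraries per condition. The study's mice were wild-type C57BL/6JRj males, and every library was made from pooled animals, so the spread between libraries is one between pools.

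In the 26S proteasome, a 20S core particle built from stacked rings of α and β subunits encloses the proteolytic sites, and a 19S regulatory particle recognizes ubiquitin chains, unfolds the substrate and feeds it into the core. Cells exposed to interferon replace the catalytic β subunits with immunoproteasome counterparts, which change the peptides that are made for display on MHC class I molecules. In muscle the complex is best known for the breakdown of contractile proteins during atrophy, and in dividing cells it removes regulators of the cell cycle.

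The libraries held between 6472484 and 10163101 counts, and 3 counts, taken as the detection floor, corresponded to between 0.280 and 0.457 normalised CPM (counts scaled to an effective library size of 1000000). Of 12060 genes tested with edgeR's quasi-likelihood test, 1.28% passed an adjusted p of 0.05. All 8 MuSC markers were detected, 0 of them passed edgeR's adjusted p, 2 passed an unadjusted p of 0.05 (9.28% of all genes) and DESeq2 called 0. Values of all 8 were lower with NAM/PN, where 50.2% of all genes were lower, and their median log2 fold change was -0.30. All 10 differentiation markers had lower values with NAM/PN, and 7 of them passed edgeR's adjusted p, which 1.28% of all genes passed. Their summed level was 1772 to 3526 CPM in control and 394 to 974.6 CPM in NAM/PN libraries. Of 12 immune cell markers, 10 had no counts in any library, among them Ptprc, Adgre1, Cd3e and Cd74. Of 8 endothelial, 8 fibro-adipogenic and 8 mural cell markers, Emcn, Flt1, Cldn5, Pdgfra, Lum, Dpt and Myh11 had no counts, and Col3a1, Gsn and Acta2 fell with NAM/PN. Others had counts in some libraries. In control replicate 4 and NAM/PN replicate 2, Pecam1 had 24 and 18 counts and Cdh5 had 19 and 25. Ly6a had 37 counts in control replicate 1 and 42 in NAM/PN replicate 2, and Pdgfrb had 27 in control replicate 2. Col1a1, on the same list as Col3a1 and Gsn, had 4.26, 1.74, 41.3 and 1.74 CPM in control and 486, 1032, 3.96 and 3.27 CPM with NAM/PN (edgeR adjusted p 0.071). Egfl7, the one endothelial marker tested, had a mean of 8.31 CPM in control and 16.9 CPM with NAM/PN (edgeR adjusted p 0.69). Control replicate 3 stood apart with 18.7% of counts on rRNA genes against 9.09% to 9.59% in the other control libraries. NAM/PN replicate 4 stood apart with 1.21% of counts on the 50 proteasome genes, whereas the other 7 libraries had between 0.886% and 0.965%.

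Transcripts of the core and regulatory particles were detected in every library, apart from the testis-specific Psma8. None of the 47 tested genes passed edgeR's adjusted p of 0.05, which 1.28% of all genes passed, whereas 3 passed an unadjusted p of 0.05 (6.38%, against 9.28% of all genes) and 2 passed DESeq2's adjusted p (4.26%, against 2.4%). With the pool as a replicate block, 0 genes passed edgeR's adjusted p, which 1.29% of all genes passed. At the unadjusted p, 3 genes passed with the block, as 9.32% of all genes did, and these were Psma7, Psmd3 and Psmb8, whereas without it they were Psma7, Psmd3 and Psma5. Psmb8 passed the filter on low counts through control, which favored a lower NAM/PN value in advance, so its p is no support for a difference. At an adjusted p of 0.10 the count was 1 (2.13%, against 2.02% of all genes). Values were higher with NAM/PN for 26 genes and lower for 21, so 55.3% had a positive log2 fold change, compared with 49.8% of all genes. The median log2 fold change was 0.031, and it was -0.0022 over all genes tested. Without NAM/PN replicate 4 the median was -0.038 and 18 genes were higher.

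The precision of these estimates was sufficient to bound most of the differences. The 95% interval of the log2 fold change lay within 1 unit on either side of 0 for 40 of the 47 genes, and within a 1.5-fold difference for 23. For the 31 tested subunits that form the 20S core and the 19S particle, without the immunoproteasome subunits, 30 intervals lay within 1 unit and 20 within 1.5-fold. Their log2 fold changes ranged from -0.27 to 0.65 with a median of 0.05. The standard deviation of these 31 values was 0.23, compared with 0.38 for the 3736 tested genes with at least the average expression of the lowest of these subunits. Both figures are descriptions over genes, which are not independent replicates.

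**Figure D1:**
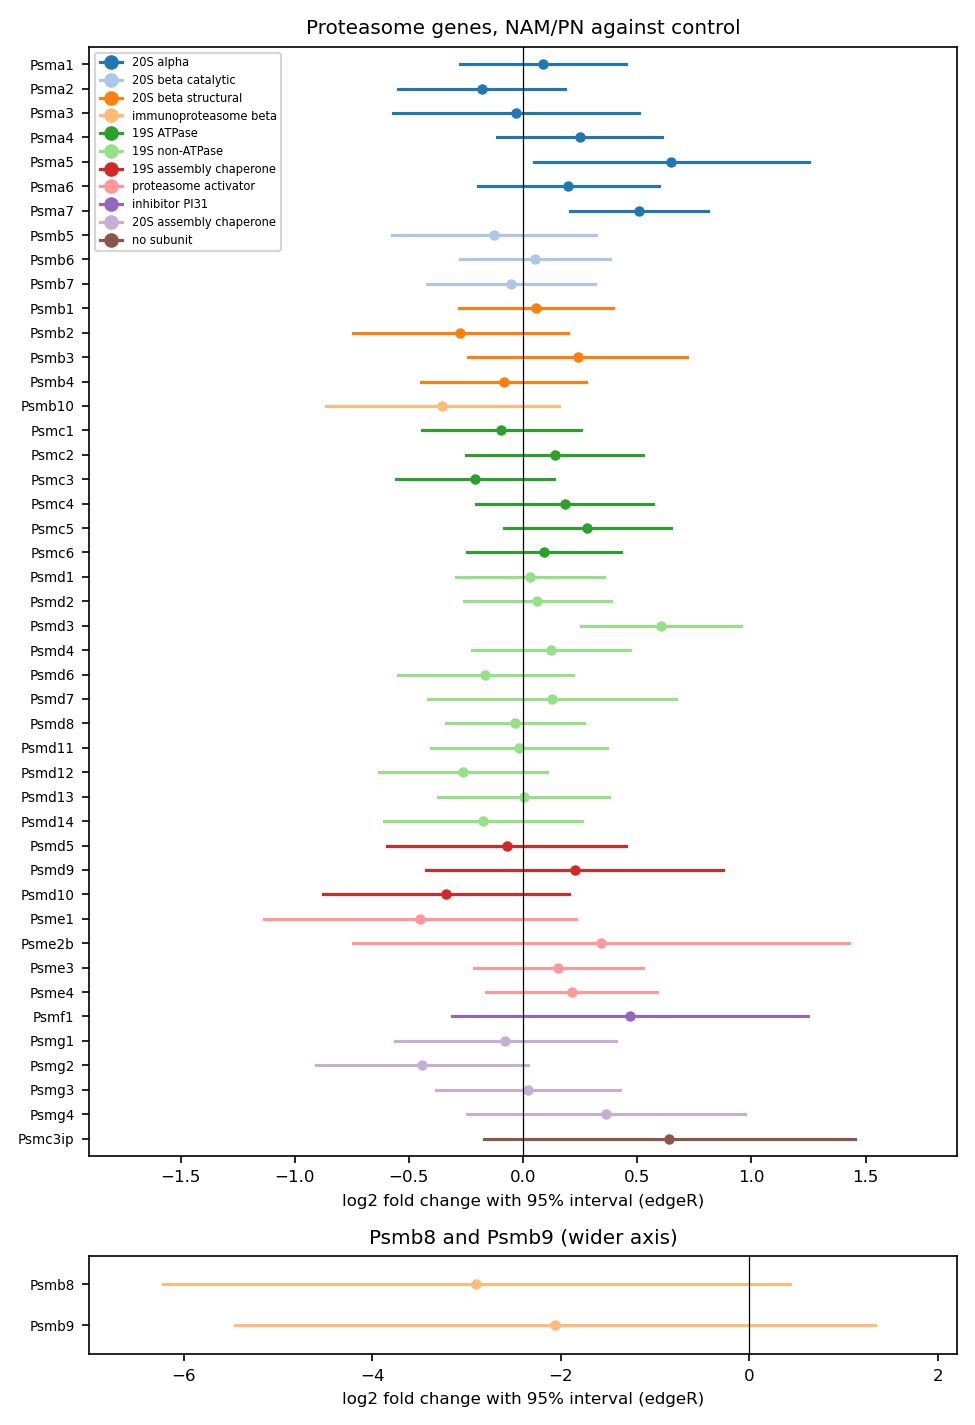
Log2 fold change of the 47 tested genes, NAM/PN against control, with 95% intervals from edgeR (x axis) and genes on the y axis colored by role; Psmb8 and Psmb9 have an axis of their own. Intervals of Psma5, Psma7 and Psmd3 lie above 0, and the particle subunits range from -0.27 to 0.65.

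The protocol counts the 3′ end of each transcript, so levels were not divided by length, and comparisons of level between genes assume that transcript ends were captured equally well. On this scale the particle subunits differed widely among themselves. Mean control levels ran from 47.8 CPM for Psma5 to 669 CPM for Psmd7, a 14.0-fold range, although the assembled particle holds these subunits in fixed proportion. The mean of Psmd7 rested on control replicate 3 (1129 CPM), and in the other control libraries Psmd8, with a control mean of 616 CPM, was above it. The 6 ATPases of the 19S base were the most even group, with a 2.37-fold range, and the 7 detected α subunits were the least even, with a 9.78-fold range.

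**Figure D2:**
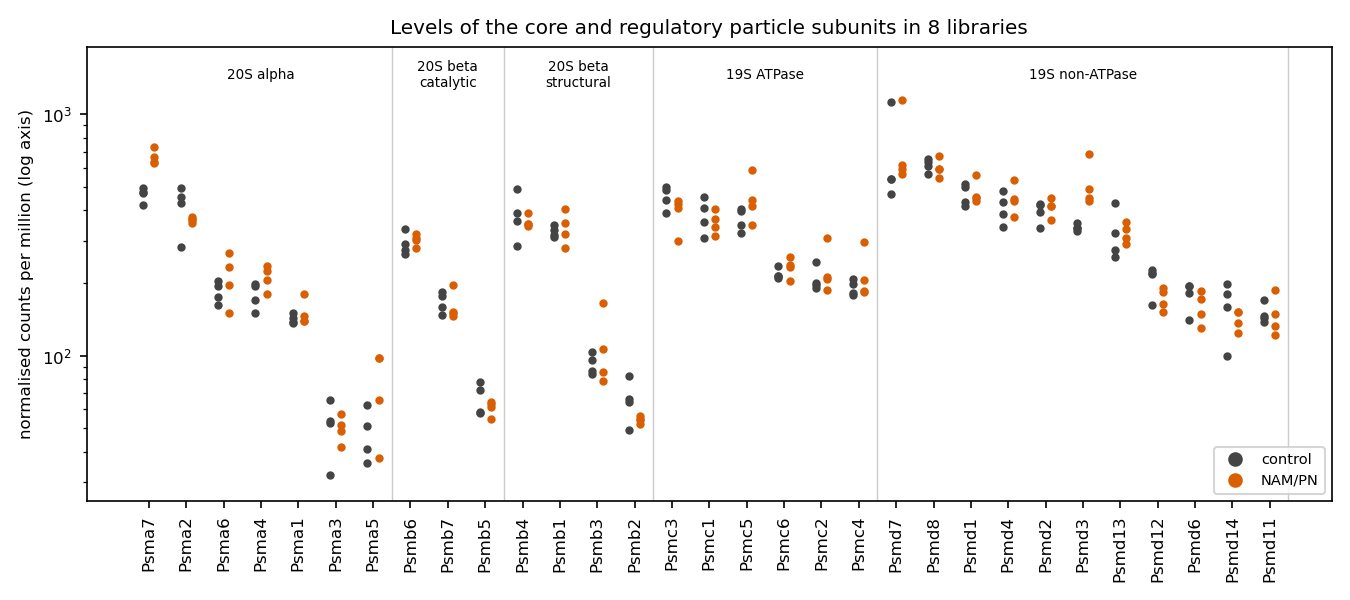
Normalised CPM (log y axis) of the 31 tested core and regulatory particle subunits (x axis, by role and control mean), 1 point per library, 4 control and 4 NAM/PN. Psma7 and Psmd3 are the subunits whose NAM/PN points all lie above the control points.

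The α subunits form the outer rings of the core and its gate. Their summed level was 1486 ± 86.1 CPM (SD, n = 4) in control and 1729 ± 111 CPM with NAM/PN, which was 16.3% higher and higher in all 4 pools. Most of this difference came from Psma7. The sum of the other α subunits was 1018 ± 56.4 CPM in control and 1064 ± 77.1 CPM with NAM/PN, a difference of 4.52%.

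Psma7 (chr2:180036374-180042433, minus strand, GRCm38) encodes the α4 subunit. Its levels were 478, 496, 422 and 474 CPM in control replicates 1 to 4 and 666, 626, 636 and 729 CPM in the NAM/PN replicates. The groups did not overlap, and each pool was higher with NAM/PN. The log2 fold change was 0.51 with a standard error of 0.15, a 1.42-fold higher level. The difference had an edgeR p of 0.0024 and an adjusted p of 0.11, so it did not pass, whereas DESeq2 gave an adjusted p of 0.0025. No copy of its transcript end was found among other annotated transcripts.

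Psma5 encodes the α5 subunit and had the highest log2 fold change of the tested genes, 0.65 with a standard error of 0.29. Its levels were 36.0, 51.4, 62.6 and 41.1 CPM in control and 97.6, 65.8, 37.8 and 98.2 CPM with NAM/PN. NAM/PN replicate 3 lay within the range of the control libraries, so the groups overlapped. The edgeR p was 0.036 and the adjusted p 0.48, and processed pseudogenes on other chromosomes share the end of this transcript. The other α subunits, Psma1, Psma2, Psma3, Psma4 and Psma6, had log2 fold changes between -0.18 and 0.25. Psma8, the testis-specific α subunit, had no counts in any library.

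**Figure D3:**
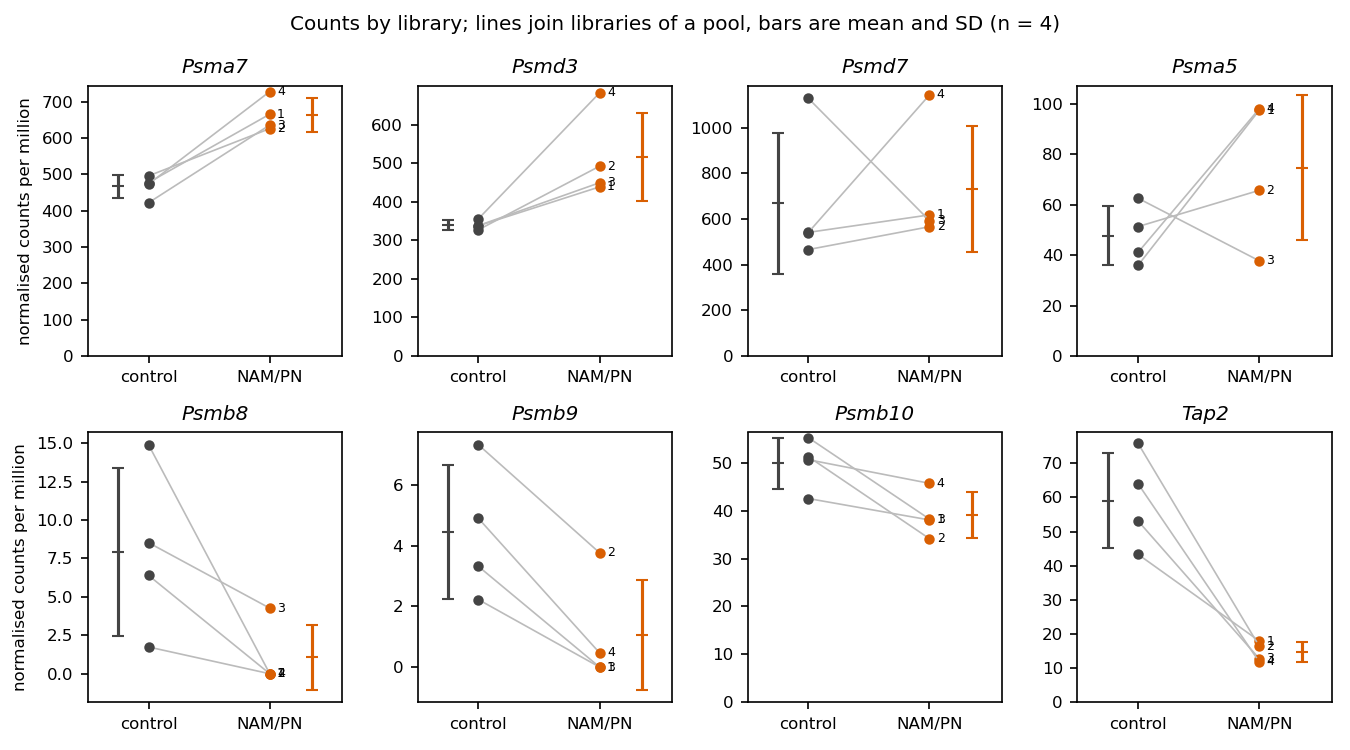
Normalised CPM (y axis) of 7 proteasome genes and Tap2 in control and NAM/PN libraries (x axis), with lines that join the libraries of a pool, pool numbers at the NAM/PN points, and mean ± SD (n = 4) at the sides. Psma7 and Psmd3 are higher with NAM/PN in every pool, and Psmb8, Psmb9, Psmb10 and Tap2 are lower in every pool.

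The constitutive catalytic subunits, which carry the proteolytic sites of the inner rings, differed between conditions by less than the spread between libraries. Their sum was 524 ± 44.5 CPM in control and 523 ± 38.6 CPM with NAM/PN, a difference of -0.21%. This difference was -3.62% without NAM/PN replicate 4 and -2.89% without control replicate 3. Psmb5, the chymotrypsin-like subunit, had 77.6, 72.0, 58.3 and 57.8 CPM in control and 54.8, 61.0, 64.4 and 62.9 CPM with NAM/PN. The groups overlapped, and the log2 fold change was -0.13 (standard error 0.21, 95% interval -0.57 to 0.32, edgeR adjusted p 0.96). It was -0.048 without control replicate 1 and -0.20 without control replicate 4. Processed pseudogenes, among them Gm3375 with 99.6% identity, share the end of the Psmb5 transcript. Psmb6, the caspase-like subunit, had 290, 275, 263 and 335 CPM in control and 279, 307, 303 and 318 CPM with NAM/PN. These ranges overlapped, with a log2 fold change of 0.05 (standard error 0.16, interval -0.27 to 0.38, edgeR adjusted p 0.98).

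Psmb7, the trypsin-like subunit, had 177, 148, 160 and 184 CPM in control and 151, 146, 150 and 196 CPM with NAM/PN. Only NAM/PN replicate 4 lay above the control range, and the log2 fold change was -0.05 (standard error 0.18, interval -0.42 to 0.31, edgeR adjusted p 0.98). It was -0.17 without NAM/PN replicate 4 and -0.011 without NAM/PN replicate 2. The end of the Psmb7 transcript matched one of Nek6, on the same chromosome, over 255 bases. The strand of the match was not recorded, so whether reads there were mixed is not known.

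The structural β subunits have no active site. Their sum was 865 ± 101.4 CPM in control and 862 ± 104 CPM with NAM/PN. Psmb2 had the smallest p of this group, with 66.0, 82.8, 49.3 and 64.4 CPM in control and 56.1, 53.9, 54.8 and 52.1 CPM with NAM/PN. The NAM/PN libraries lay between the lowest and the other control libraries, and the log2 fold change was -0.27 (standard error 0.22, edgeR adjusted p 0.83), or -0.14 without control replicate 2. Psmb1, Psmb3 and Psmb4 had log2 fold changes between -0.09 and 0.24.

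Of the immunoproteasome subunits Psmb8 and Psmb9 were scarce, Psmb10 was near the level of Psma5, and the values of all 3 were lower with NAM/PN in each of the 4 pools. Psmb8 replaces Psmb5, Psmb9 replaces Psmb6 and Psmb10 replaces Psmb7 in the immunoproteasome. The sum of these 3 genes was 62.2 ± 9.40 CPM in control and 41.1 ± 3.96 CPM with NAM/PN, a difference of -33.9%, and of -36.6% without NAM/PN replicate 4. None of the 3 genes passed the test. Psmb8 and Psmb9 passed the filter on low counts through control, where 4 of 4 libraries reached its level of 1.20 CPM against 1 of 4 with NAM/PN, so a lower NAM/PN value was favored in advance and their direction is a description.

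Psmb8 had 54, 120, 69 and 16 counts in the control replicates and 0, 0, 28 and 0 counts in the NAM/PN replicates. These counts were 6.39, 14.9, 8.52 and 1.74 CPM in control, and 4.26 CPM in NAM/PN replicate 3. That library lay above control replicate 4, so the groups overlapped, although the value was lower with NAM/PN in each pool. The log2 fold change was -2.89 with a standard error of 1.59, an edgeR p of 0.084 and an adjusted p of 0.65. Because 3 of 4 NAM/PN libraries were at 0, the fitted value depended on the model, and with the replicate block it was -6.10 (edgeR adjusted p 0.32). The filter favored a lower NAM/PN value for Psmb8, so these p values are no support for a difference. Leaving out NAM/PN replicate 3 set the NAM/PN group to 0 and so fixed the outcome, and no p is given for that fit. An antisense gene, Gm20496, matched the end of this transcript over 135 bases, on a strand that was not recorded.

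Psmb9 had 28, 59, 18 and 45 counts in control and 0, 27, 0 and 5 counts with NAM/PN. In CPM these were 3.32, 7.32, 2.22 and 4.90 in control, with 3.76 in NAM/PN replicate 2 and 0.467 in NAM/PN replicate 4. NAM/PN replicate 2 lay within the control range, and the log2 fold change was -2.06 (standard error 1.62, edgeR p 0.22, adjusted p 0.82). It was -4.03 with the replicate block (edgeR adjusted p 0.64) and -4.63 without NAM/PN replicate 2 (edgeR adjusted p 0.46).

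Psmb10 was the best counted of the 3, with 42.5, 51.2, 55.2 and 50.6 CPM in control and 38.0, 34.1, 38.2 and 45.7 CPM with NAM/PN. Only NAM/PN replicate 4 lay above the lowest control library. The log2 fold change was -0.35 (standard error 0.24, 95% interval -0.86 to 0.16, edgeR adjusted p 0.78). In two-sided exact permutation tests of mean log2 CPM, without regard to pools, over the 70 assignments of 4 and 4 libraries, p was 0.057 for Psmb10, 0.37 for Psmb5, 0.49 for Psmb6 and 0.69 for Psmb7. The smallest p that this exact test allows is 0.029, these values were not adjusted, and no such p is given for Psmb8 and Psmb9 because of the filter.

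The immunoproteasome share among counts of the 6 catalytic β genes does not depend on scaling between libraries. It was 8.74%, 12.9%, 12.1% and 9.02% in the control replicates and 7.28%, 6.86%, 7.60% and 7.41% in the NAM/PN replicates. These ranges did not overlap, but that rested on Psmb8 and Psmb9. In a comparison added after the data were seen, Psmb10 alone made up 7.12% to 10.1% of the same counts in control and 6.18% to 7.33% with NAM/PN, and these ranges overlapped. Exact binomial intervals of the summed share overlapped as well. That of control replicate 1, 7.98% to 9.56%, overlapped those of NAM/PN replicates 1, 3 and 4, and that of control replicate 4, 8.30% to 9.79%, overlapped that of NAM/PN replicate 3, 6.76% to 8.50%. These intervals cover counting error only. Taken against the subunit that each replaces, the ranges of all 3 shares overlapped. Psmb10 made up 19.4% to 25.7% of Psmb10 and Psmb7 counts in control and 18.9% to 20.3% with NAM/PN. The share of Psmb8 beside Psmb5 was 2.93% to 17.1% in control and 0% to 6.21% with NAM/PN, and that of Psmb9 beside Psmb6 was 0.838% to 2.59% and 0% to 1.21%. Immune cells carry the immunoproteasome, and the summed level of the 12 immune markers was 2.47 to 17.1 CPM in control and 5.14 to 12.7 CPM with NAM/PN, with the defining markers at 0. Fewer cells of a type and less RNA per cell cannot be told apart in these bulk libraries. The lower level of differentiation markers moved with the same groups, and its part in the immunoproteasome values was not tested. Psmb11, the thymus-specific β subunit, had no counts in any library.

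**Figure D4:**
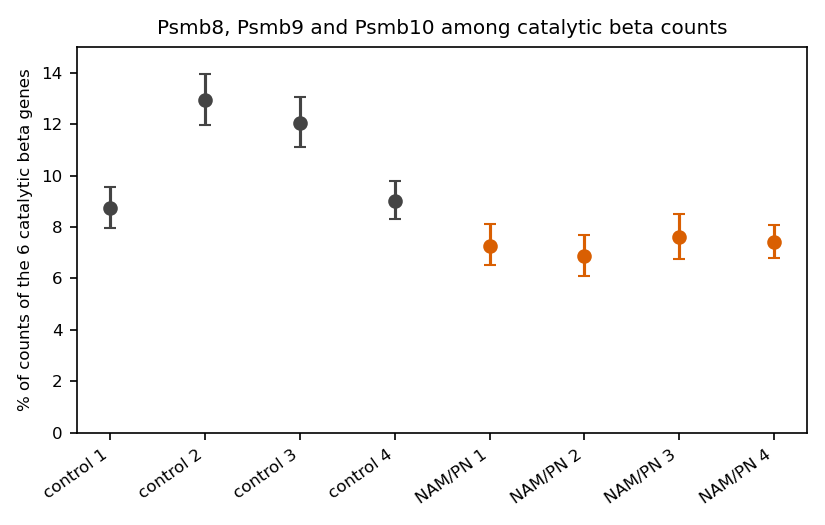
Share of Psmb8, Psmb9 and Psmb10 among counts of the 6 catalytic β genes (y axis, percent) in each library (x axis), with exact 95% binomial intervals. Control libraries lie between 8.74% and 12.9% and NAM/PN libraries between 6.86% and 7.60%, whereas the ranges of Psmb10 alone, which is not plotted, overlapped.

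Psmb8 and Psmb9 lie in the MHC region beside the genes of the TAP transporter, which carries the cut peptides into the endoplasmic reticulum. Psmb9 (chr17:34181987-34187764, minus strand), Tap1 (chr17:34187553-34197225, plus strand), Psmb8 (chr17:34197721-34201454, plus strand) and Tap2 (chr17:34203527-34216321, plus strand) together span 34335 bases of GRCm38. Tap2 had 43.3, 75.8, 53.1 and 64.0 CPM in control and 18.0, 16.4, 12.8 and 11.9 CPM with NAM/PN. All NAM/PN libraries were below all control libraries, and Tap2 fell by 2.00 on the log2 scale (standard error 0.30, edgeR adjusted p 0.00093). Tap1, the other transporter subunit, had a log2 fold change of -0.75 with a standard error of 0.54 (edgeR adjusted p 0.79).

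Promoters of Psmb8 and Psmb9 are shown beside those of Psmb5 and Psmb6, the subunits they replace, and that of Psma7, the α subunit with non-overlapping groups. The sequences are from RefSeq on GRCm38.p6, 5′ to 3′ on the gene's strand, from 250 bases before to 50 bases after the start. Capitals mark a match to 1 of 3 motifs searched on both strands. In Psmb5 and Psmb6 it is the core of the antioxidant response element, TGACNNNGC, to which NRF1 and NRF2 bind. In Psmb8 it is the gamma-activated site TTCNNNGAA, and in Psma7 and Psmb9 it is the CCAAT box (CCAAT, or ATTGG on the other strand).
Psma7 (chr2:180042415-180042714, minus strand): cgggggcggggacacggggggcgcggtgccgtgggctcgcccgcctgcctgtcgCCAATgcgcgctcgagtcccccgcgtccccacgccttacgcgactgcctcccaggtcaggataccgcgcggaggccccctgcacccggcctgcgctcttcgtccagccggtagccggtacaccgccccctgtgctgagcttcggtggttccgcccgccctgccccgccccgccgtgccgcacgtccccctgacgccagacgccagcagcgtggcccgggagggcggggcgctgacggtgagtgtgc
Psmb5 (chr14:54617946-54618245, minus strand): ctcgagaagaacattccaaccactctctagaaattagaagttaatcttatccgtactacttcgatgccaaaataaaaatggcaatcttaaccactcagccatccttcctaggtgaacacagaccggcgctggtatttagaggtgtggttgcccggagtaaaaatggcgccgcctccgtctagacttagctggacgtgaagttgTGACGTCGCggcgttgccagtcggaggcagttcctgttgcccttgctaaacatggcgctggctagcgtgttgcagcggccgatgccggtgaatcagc
Psmb6 (chr11:70525107-70525406, plus strand): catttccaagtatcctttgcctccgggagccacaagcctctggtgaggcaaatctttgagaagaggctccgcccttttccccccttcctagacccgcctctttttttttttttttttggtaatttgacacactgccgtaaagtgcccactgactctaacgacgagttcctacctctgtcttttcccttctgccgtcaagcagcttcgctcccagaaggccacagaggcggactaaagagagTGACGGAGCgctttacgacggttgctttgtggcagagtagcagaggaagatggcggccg
Psmb8 (chr17:34197945-34198244, plus strand): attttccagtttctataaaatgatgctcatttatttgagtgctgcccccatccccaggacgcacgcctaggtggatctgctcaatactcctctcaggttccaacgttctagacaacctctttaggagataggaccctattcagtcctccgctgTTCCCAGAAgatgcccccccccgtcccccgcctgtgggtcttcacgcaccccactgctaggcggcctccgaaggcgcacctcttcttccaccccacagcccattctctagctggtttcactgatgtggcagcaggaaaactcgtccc
Psmb9 (chr17:34187281-34187580, minus strand): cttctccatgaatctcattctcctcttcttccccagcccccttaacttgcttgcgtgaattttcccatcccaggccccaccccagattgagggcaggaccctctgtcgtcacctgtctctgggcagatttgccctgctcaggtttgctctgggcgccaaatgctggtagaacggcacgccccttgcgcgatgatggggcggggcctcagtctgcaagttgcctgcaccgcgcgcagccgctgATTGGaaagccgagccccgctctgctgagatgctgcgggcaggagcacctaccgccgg

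The match began 47 bases before the start in Psmb5, 9 before it in Psmb6, 97 before it in Psmb8, 196 before it in Psma7 and 8 before it in Psmb9. The RefSeq starts of Psmb8 and Psmb9 lie inside the gene extents of GENCODE given above, so their windows do as well. The Psmb9 window shares 275 bases with that of Tap1, which is read in the opposite direction from a start 226 bases away. Promoters were listed for 42 of the 50 genes. TGACNNNGC was found in 6 of them (14.3%), Psmb5, Psmb6, Psmc6, Psmd9, Psmd12 and Psme4, and in 12.4% of all 32851 promoters. TTCNNNGAA was found in 3 (7.1%), Psmb8, Psmd2 and Psmg1, against 8.3% of all promoters, and CCAAT in 15 (35.7%), against 37.4%. These proteasome shares count a gene if any of its promoters matched, whereas the shares of all promoters are per promoter. Counted per promoter, 6, 3 and 15 of the 45 proteasome promoters held these motifs in turn. The frequencies in proteasome promoters were thus near those of all promoters, and a match describes the letters in the window and not a bound site.

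The 6 ATPases, Psmc1 to Psmc6, form the ring at the base of the 19S particle that unfolds substrates. Their sum was 1823 ± 110 CPM in control and 1877 ± 186 CPM with NAM/PN, a difference of 2.99%, and of -1.68% without NAM/PN replicate 4. Log2 fold changes ranged from -0.21 for Psmc3 to 0.28 for Psmc5. Psmc5 had 406, 323, 399 and 349 CPM in control and 349, 415, 443 and 588 CPM with NAM/PN. NAM/PN replicate 4 was the highest library and the groups overlapped (standard error 0.17, edgeR adjusted p 0.73). Without that library the log2 fold change of Psmc5 was 0.12.

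The 11 non-ATPase subunits make up the lid and the rest of the base, among them the ubiquitin receptor Psmd4, the deubiquitinase Psmd14 and the scaffolds Psmd1 and Psmd2. Their sum was 3911 ± 347 CPM in control and 4124 ± 574 CPM with NAM/PN, a difference of 5.43%. It was -1.84% without NAM/PN replicate 4 and 9.9% without control replicate 3. Psmd3 (chr11:98682554-98695979, plus strand), a lid subunit, was the gene with the smallest p among all 47. It had 337, 327, 338 and 356 CPM in control and 438, 492, 449 and 682 CPM with NAM/PN. Control libraries were within a narrow range, all NAM/PN libraries were above them, and NAM/PN replicate 4 was the highest.

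The log2 fold change of Psmd3 was 0.60 with a standard error of 0.17, a 1.52-fold higher level, with an edgeR p of 0.0019 and an adjusted p of 0.097. DESeq2 gave an adjusted p of 0.011. Without Psmd3 the sum of the non-ATPase subunits was 3572 ± 344 CPM in control and 3608 ± 461 CPM with NAM/PN, a difference of 1.02%. This difference was -5.39% without NAM/PN replicate 4 and 5.74% without control replicate 3.

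Psmd7, a lid subunit that pairs with Psmd14, had the highest mean and the largest SD between libraries of the non-ATPase subunits. It had 541, 466, 1129 and 540 CPM in control and 618, 566, 593 and 1143 CPM with NAM/PN. Control replicate 3 and NAM/PN replicate 4 were both far above their groups, and Psmd8 exceeded Psmd7 in control replicates 1, 2 and 4. For Psmd7 the log2 fold change was 0.13 with a standard error of 0.26. The other non-ATPase subunits, Psmd1, Psmd2, Psmd4, Psmd6, Psmd8, Psmd11, Psmd12, Psmd13 and Psmd14, had log2 fold changes between -0.26 and 0.12.

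**Figure D5:**
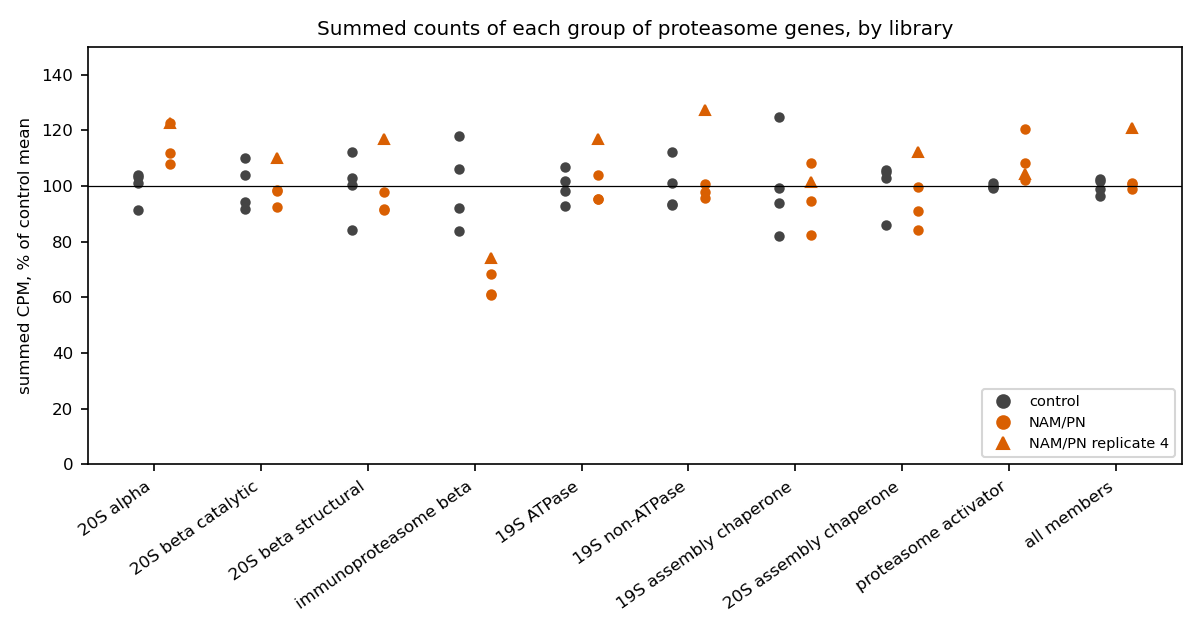
Summed CPM of each group of proteasome genes (x axis) in each library, as percent of the control mean (y axis), 4 control and 4 NAM/PN libraries with NAM/PN replicate 4 as a triangle. The NAM/PN mean differs from the control mean by 16.3% for the α subunits and by -33.9% for the immunoproteasome β subunits.

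Summed over all 50 genes, the level was 9539 ± 260 CPM in control and 10053 ± 986 CPM with NAM/PN, 5.39% higher. NAM/PN replicate 4 reached 11527 CPM, whereas the other NAM/PN libraries had between 9451 and 9639 CPM. Without it the difference was 0.24%. Among the NAM/PN libraries it held the highest value of 24 of the 47 genes. The share over all tested genes was not computed, so nothing particular to proteasome genes is read from this count. The same library had the lowest share of rRNA counts, 5.22%, and of mitochondrial counts, 2.56%, and the part of these in its proteasome level was not tested.

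Further factors help to build the particle or cap it. The 19S assembly chaperones Psmd5, Psmd9 and Psmd10 summed to 222 ± 40.1 CPM in control and 215 ± 24.6 CPM with NAM/PN. Psmd10, also called gankyrin, had 46.4, 48.0, 43.6 and 40.8 CPM in control and 39.3, 26.5, 37.9 and 37.8 CPM with NAM/PN. The groups did not overlap, but the log2 fold change of -0.34 (standard error 0.26) had an edgeR adjusted p of 0.81 and was -0.22 without NAM/PN replicate 2.

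The 20S assembly chaperones Psmg1 to Psmg4 pair up to build the α ring, and summed to 295 ± 27.5 CPM in control and 286 ± 35.7 CPM with NAM/PN. Psmg2, the partner of Psmg1, had 68.1, 70.3, 64.2 and 74.8 CPM in control and 60.3, 38.5, 53.3 and 51.8 CPM with NAM/PN. These groups did not overlap either, and the log2 fold change was -0.44 with a standard error of 0.22 (edgeR p 0.060, adjusted p 0.58). Psmg1, Psmg3 and Psmg4 had log2 fold changes of -0.08, 0.02 and 0.36.

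The activators dock on the ends of the core in place of the 19S particle. Psme1 encodes the α chain of the interferon-inducible PA28 cap and had 29.6, 41.2, 37.9 and 35.9 CPM in control and 17.4, 30.0, 18.4 and 39.7 CPM with NAM/PN. NAM/PN replicates 1 and 3 were below the control libraries and the others were not, with a log2 fold change of -0.45 (standard error 0.33, edgeR adjusted p 0.79), or -0.72 without NAM/PN replicate 4 and -0.30 without NAM/PN replicate 1. Psme2, its partner chain, was too low to be tested, with 0, 0, 39 and 24 counts in control and 4, 0, 0 and 0 counts with NAM/PN. Its transcript end is 99.0% identical to that of Psme2b, a gene with a mean of 14.3 CPM in control and 18.2 CPM with NAM/PN, so reads of this pair could not be told apart with certainty.

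The nuclear activators Psme3 and Psme4 had log2 fold changes of 0.15 and 0.21, and Psme2b of 0.34, none of which passed the test. Psmf1 encodes PI31, an inhibitor of the core in vitro, and had 32.0, 40.3, 15.1 and 31.1 CPM in control and 50.2, 34.1, 17.8 and 61.6 CPM with NAM/PN. The ranges overlapped widely, with a log2 fold change of 0.47 (standard error 0.37, edgeR adjusted p 0.83), or 0.20 without NAM/PN replicate 4, 0.25 without control replicate 3 and 0.72 without NAM/PN replicate 3.

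Psmc3ip, which is no proteasome gene, had 16.0, 12.4, 14.1 and 13.5 CPM in control and 31.6, 19.6, 18.0 and 18.0 CPM with NAM/PN. The groups did not overlap, with a log2 fold change of 0.64 (standard error 0.39, edgeR adjusted p 0.72), or 0.41 without NAM/PN replicate 1. The end of its transcript matched one of Mlx, on the same chromosome, on a strand that was not recorded. In all, 3 of the 47 tested genes had every NAM/PN library above every control library (6.38%, against 2.79% of all genes), namely Psma7, Psmd3 and Psmc3ip. The 2 genes with every NAM/PN library below every control library (4.26%, against 4.42% of all genes) were Psmd10 and Psmg2.

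Of 57 tested genes of the wider pathway, 1 passed edgeR's adjusted p, which 1.28% of all genes passed. Of 5 regulators of proteasome genes, 0 passed it, 1 passed an unadjusted p of 0.05 (9.28% of all genes) and DESeq2 called 0. Nfe2l1 encodes NRF1, which raises transcription of proteasome genes when the proteasome is impaired. It had 132, 139, 114 and 130 CPM in control and 111, 96.3, 72.9 and 100 CPM with NAM/PN. All NAM/PN libraries were below the control libraries, with a log2 fold change of -0.44 (standard error 0.19, edgeR p 0.033, adjusted p 0.47).

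Nfe2l2, which encodes the stress factor NRF2, had 166, 135, 164 and 139 CPM in control and 172, 183, 169 and 118 CPM with NAM/PN. The groups overlapped, and the log2 fold change was 0.09 (standard error 0.19, edgeR adjusted p 0.97). Ddi2, the protease that activates NRF1, and Vcp, the ATPase that extracts it from the membrane, had log2 fold changes of 0.11 and -0.21.

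Among 14 proteasome-associated genes and 19 genes of ubiquitin activation and delivery, 0 passed edgeR's adjusted p, 0 had an unadjusted p under 0.05 and DESeq2 called 0, where 1.28%, 9.28% and 2.4% of all genes did. Akirin2, which imports proteasomes into the nucleus, had 179, 164, 136 and 168 CPM in control and 181, 205, 232 and 159 CPM with NAM/PN. The groups overlapped, with a log2 fold change of 0.26 (standard error 0.18, edgeR adjusted p 0.77), or 0.17 without NAM/PN replicate 3. Uba1, the main ubiquitin-activating enzyme, had 479, 433, 586 and 484 CPM in control and 477, 541, 492 and 1058 CPM with NAM/PN. NAM/PN replicate 4 alone lay above the control range (log2 fold change 0.37, standard error 0.22, edgeR adjusted p 0.70), and without it the log2 fold change was 0.022.

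Genes of antigen presentation had lower values with NAM/PN for 11 of 11 tested members of a list of 13, where 50.2% of all genes had lower values. Their log2 fold changes included values near 0, such as -0.05 for Erap1 and -0.09 for Canx. The median log2 fold change was -0.26, and Tap2 alone passed the test. Tapbp encodes tapasin, which loads peptides onto MHC class I, and had 54.4, 58.6, 58.2 and 34.8 CPM in control and 22.0, 12.5, 15.4 and 33.8 CPM with NAM/PN. The groups did not overlap, although NAM/PN replicate 4 came close to control replicate 4, and the log2 fold change was -1.29 (standard error 0.33, edgeR adjusted p 0.067). DESeq2 gave Tapbp an adjusted p of 0.025. Tapbp also passed edgeR's adjusted p without NAM/PN replicate 4, when 2 genes of the wider pathway passed. B2m, the light chain of MHC class I, had a log2 fold change of -0.32 (edgeR adjusted p 0.67).

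Of 24 interferon response genes, 10 had enough reads to be tested. None passed edgeR's adjusted p, DESeq2 called 0, and 1 of the 10 passed an unadjusted p of 0.05, a share near the 9.28% of all genes. The gene with the smallest p, Ifi27, an interferon-inducible gene, had 46.9, 33.6, 29.6 and 41.8 CPM in control and 8.74, 20.9, 18.6 and 29.1 CPM with NAM/PN. The groups did not overlap, and the log2 fold change was -0.97 (standard error 0.36, edgeR p 0.014, adjusted p 0.32).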

How the data were processed

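RNA of cultured MuSCs was sequenced with a QuantSeq 3′ forward kit in 8 libraries, 4 per condition. The authors aligned reads to GRCm38 with RNASTAR, counted them per gene with HTSeq (2.16.2 in the submitters' processing notes) and deposited raw read counts without normalization. How HTSeq treated strand and reads with several matches is not given in the sources used here, so counts of genes with copied or overlapping transcript ends are uncertain. The last 300 bases of each transcript were therefore compared with all GENCODE M21 transcripts by BLAST 2.17.0 on both strands. Of the 50 genes, 16 had a match with at least 95% identity over 100 bases. Orientation of the matches was not recorded, so some may lie on the opposite strand.

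Genes were filtered with filterByExpr (minimum count 10, minimum total 15), normalized by trimmed mean of M-values and tested with edgeR 4.0.16 in R 4.3.3 (glmQLFit, glmQLFTest), with Benjamini-Hochberg adjustment over all 12060 genes tested and a threshold of 0.05. Changes are log2 fold changes, NAM/PN against control, and summed levels were not tested. Exact permutation tests were computed in R, binomial intervals used scipy 1.17.1 on Python 3.11.15, and figures matplotlib 3.10.9.

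Libraries were paired by the pool number of their labels, since each pool identifier stands on 1 control and 1 NAM/PN library and 8 mice gave 4 pools of 2, so both conditions of a pool shared mice. Deviations of paired libraries from their group means had correlations between -0.033 and 0.031. Libraries of a condition all differed by more than sampling noise, with a chi-square per gene of at least 22.8.

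Alternatives were the replicate block, DESeq2 1.42.0, other scalings, no filter, counts without rRNA and mitochondrial genes, a threshold of 0.10, and leaving out libraries or pools. Full values are given for genes that passed, the gene with the smallest p in each role or pathway list, the catalytic β subunits with their immunoproteasome counterparts, Psme1, Psme2, Nfe2l1 and Nfe2l2. Psma5, Psmd7, Psmd8, Tapbp, Tap1, B2m, Erap1, Canx, Ddi2, Vcp, Col1a1, Egfl7, Pecam1, Cdh5, Ly6a and Pdgfrb were named after their values were seen. The 50 genes and all lists were chosen with earlier results of these data known. RefSeq promoters were read from a GRCm38.p6 table, which matched 42 of the 50 genes.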

Additional observations from a re-analysis of the deposited data

Results flagged for a closer look

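Single libraries that lay far from the other 3 of their condition were sought for each of the 47 tested genes, in 94 groups of 4 libraries. The gap to the nearest library, divided by the range of the group, exceeded Dixon's 95% critical value for 4 samples in 12 groups (12.8%). Over all 12060 tested genes 6.55% of such groups did, and chance alone would flag about 1 in 20. Genes share libraries, so these groups are not independent, and nothing particular to proteasome genes is read from the count.

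Among the α and β subunits, NAM/PN replicate 1 was high for Psma1 (179 CPM, others 139 to 145 CPM) and NAM/PN replicate 4 was high for Psmb7 (196 CPM, others 146 to 151 CPM). The immunoproteasome gene Psmb8 was at 4.26 CPM in NAM/PN replicate 3 and had no counts in the other NAM/PN libraries, which fixes its ratio at the maximum. Psmb9 was at 3.76 CPM in NAM/PN replicate 2, with 0 to 0.467 CPM in the others.

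In the 19S particle, Psmc2 was high in control replicate 4 (243 CPM, others 191 to 199 CPM) and Psmd1 in NAM/PN replicate 4 (562 CPM, others 436 to 454 CPM). Psmd7 was high in control replicate 3 (1129 CPM, others 466 to 541 CPM) and in NAM/PN replicate 4 (1143 CPM, others 566 to 618 CPM). Psmd12 was low in control replicate 3 (162 CPM, others 217 to 226 CPM).

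Among assembly factors, Psmd9 was high in control replicate 3 (68.7 CPM, others 41.2 to 45.4 CPM) and Psmd10 was low in NAM/PN replicate 2 (26.5 CPM, others 37.8 to 39.3 CPM). Psmc3ip was high in NAM/PN replicate 1 (31.6 CPM, others 18.0 to 19.6 CPM).

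Of 26 groups of summed levels, 4 held such a library. NAM/PN replicate 4 was high for the 19S non-ATPase subunits (4977 CPM, others 3750 to 3937 CPM), for the core and regulatory particle subunits (10524 CPM, others 8549 to 8746 CPM) and for all 50 genes (11527 CPM, others 9451 to 9639 CPM). Control replicate 1 was low for the 20S assembly chaperones (254 CPM, others 303 to 313 CPM).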

How the results depend on the processing

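The count of proteasome genes past the threshold was 0, and it was also 0 with the replicate block, with size factors of the RLE kind, with library totals alone, without the filter on low counts, without rRNA and mitochondrial genes, and without both control replicate 3 and NAM/PN replicate 4, a setting chosen after the data were seen. It was 2 with DESeq2 (Psma7 and Psmd3) and 1 at an adjusted p of 0.10 (Psmd3), and ranged from 0 to 1 when libraries or pools were left out. The 1 call there was Psmb8 without NAM/PN replicate 3. The remaining NAM/PN libraries were then at 0 for Psmb8, which had passed the filter through control. That call was therefore fixed by the library left out and is no support for a difference.

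The median log2 fold change was 0.031, was 0.029 with the replicate block, 0.095 with library totals alone, which moved the median of all genes to 0.055, and from -0.038 to 0.081 with libraries or pools left out. The pooled SD between libraries was 0.081. Of the wider pathway, 1 gene (Tap2) passed, and 2 (Tap2 and Tapbp) passed with DESeq2 and without the filter, with a range of 1 to 2 when libraries or pools were left out. Tapbp was added without NAM/PN replicate 4.

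Among the genes named by rule, the sign turned for Psmb7 with library totals alone (0.0071), and with libraries or pools left out for Nfe2l2 (-0.033 to 0.24), Psmb6 (-0.028 to 0.12) and Psmf1 (-0.024 to 0.73), none of which passed a test. The other 125 comparisons under other settings and 270 with libraries left out kept their sign. The replicate block changed no call of a proteasome gene or pathway gene. Psmb8 and Psmb9 had 287 and 182 counts over the 8 libraries, with intervals of the log2 fold change from -6.22 to 0.43 and from -5.45 to 1.33, and Psme2 had 67 counts and was not tested.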
